A study of Mus musculus with 27 samples.

Results

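The 34 genes described here encode the machinery of glycolysis and of the response to low oxygen: the glucose and lactate carriers, the enzymes from hexokinase to lactate dehydrogenase with their isozymes, the flux regulators Pfkfb3, Pfkfb4 and Pdk1, the oxygen sensors, and well-known targets of hypoxia-inducible factor. They were chosen by gene name and matched to the count table by Ensembl identifier. All 34 were among the 47729 gene rows of the table, and all 34 passed the filter on low counts, which left 14059 genes for testing.

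The data were bulk RNA-seq counts of CD8+ T cells from MC38 tumours, and MC38 is a mouse colon adenocarcinoma line. Live cells bearing CD45, CD3 and CD8 had been sorted by whether they carried PD-1, an inhibitory receptor of activated and exhausted T cells, and KLRG1, a receptor of differentiated effector cells. The mice had received an isotype control (Iso in the labels) or a combined immunotherapy (Tri in the labels, TCT in the series text), whose components the labels do not give. The 27 libraries fell into 6 groups. Under Tri there were 5 each of PD1+KLRG1+, PD1+KLRG1- and PD1-KLRG1- cells and 4 of PD1-KLRG1+ cells, and under Iso 4 each of PD1-KLRG1+ and PD1-KLRG1- cells. PD1+ cells were analysed only under Tri, so the effect of treatment could be compared only in PD1- cells. The sources used here do not give host strain, age or pooling of mice. The labels also do not say that libraries of a group came from separate mice, so p-values measure only the spread between these libraries, which may be technical.

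Glycolysis turns glucose into pyruvate, and activated T cells raise it and pass much of the pyruvate to lactate, which leaves the cell through monocarboxylate carriers. When oxygen is short, prolyl hydroxylases stop marking hypoxia-inducible factor for destruction, and the factor binds DNA at hypoxia response elements and switches on glycolytic enzymes, angiogenic factors and mitophagy receptors. In T cells antigen receptor signalling can raise the same factor without hypoxia.

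Library totals ran from 6991521 to 26284630 counts, apart from Iso PD1-KLRG1+ replicate 3 with 93198. In that library 1 count equals 9.20 TMM-scaled CPM (counts scaled to a common library size) and 3 counts equal 27.6 CPM. Among 6969 well-expressed genes (median 20 CPM or above), 16.4% ± 9.08 (SD, n = 4) had no count in the Iso PD1-KLRG1+ libraries, against group means of 0.0359% to 1.79% elsewhere. Libraries of the Tri groups were uneven too: replicates 1, 2 and 3 of Tri PD1+KLRG1+ stood at 2.60%, 3.59% and 2.58%, and replicate 5 of Tri PD1-KLRG1- at 3.43%. All other libraries outside Iso PD1-KLRG1+ were at most at 0.761%. Of the 136 member values in that group, 28 were 0, and 1 of 136 was 0 in Iso PD1-KLRG1-. Member calls that rest on this group are therefore also given with its libraries left out. Most other values that rest on it, among them the calls of genes outside the members, are given with all its libraries only. The PD-1 comparisons and the treatment comparison in KLRG1- cells are also given without this group in the fit. The sort matched the transcripts in the group means: Pdcd1, which encodes PD-1, averaged 935 and 1233 CPM in the PD1+ groups and 57.3 to 119 CPM in the PD1- groups, and Klrg1 averaged 92.0 to 254 CPM in the KLRG1+ groups and 1.77 to 19.6 CPM in the KLRG1- groups. Cd8a averaged 937 CPM or more in every group. Part of the libraries carry an RNA number at the end of their description (Iso replicate 4, and Tri replicates 4 and 5), which was entered as a covariate and is called the name series. With an RNA number there was 1 library in each Iso group and in Tri PD1-KLRG1+, and 2 in each other Tri group. Fold changes within that series that use the former groups therefore rest on 1 library there.

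The core of the hypoxia response element is ACGTG or GCGTG. The first form was searched on both strands, and 4 promoters are printed because their genes carry the PD-1 results below. Letters are the 250 bases before the start of transcription on the gene's own strand, from RefSeq on GRCm38.p6, with ACGTG or its reverse complement in capitals. Pgk1 and Bnip3 held this form there, at chrX:106186850-106187099 (plus strand) and chr7:138909507-138909756 (minus strand), while Tpi1 at chr6:124814159-124814408 (minus strand) and Gapdh at chr6:125165774-125166023 (minus strand) held none.
Pgk1: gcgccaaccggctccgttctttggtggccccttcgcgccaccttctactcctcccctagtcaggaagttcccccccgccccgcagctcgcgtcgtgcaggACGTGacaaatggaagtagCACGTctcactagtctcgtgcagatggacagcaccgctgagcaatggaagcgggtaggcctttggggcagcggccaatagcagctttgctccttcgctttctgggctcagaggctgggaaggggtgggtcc
Bnip3: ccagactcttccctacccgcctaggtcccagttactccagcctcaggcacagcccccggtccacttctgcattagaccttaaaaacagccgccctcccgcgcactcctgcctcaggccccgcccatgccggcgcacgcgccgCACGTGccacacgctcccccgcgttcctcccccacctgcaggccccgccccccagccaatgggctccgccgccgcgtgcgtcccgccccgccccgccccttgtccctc
Tpi1: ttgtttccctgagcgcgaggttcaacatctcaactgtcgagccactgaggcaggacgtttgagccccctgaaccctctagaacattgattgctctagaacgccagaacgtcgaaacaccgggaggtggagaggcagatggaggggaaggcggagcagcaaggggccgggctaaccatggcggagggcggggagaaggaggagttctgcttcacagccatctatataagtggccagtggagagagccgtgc
Gapdh: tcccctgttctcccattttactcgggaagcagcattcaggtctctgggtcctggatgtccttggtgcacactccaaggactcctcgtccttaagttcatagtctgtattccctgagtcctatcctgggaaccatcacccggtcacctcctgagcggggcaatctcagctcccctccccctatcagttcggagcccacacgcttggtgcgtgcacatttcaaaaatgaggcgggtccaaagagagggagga
The Pgk1 matches began 150 and 131 bases before the start. The 2 Bnip3 matches began 108 and 107 bases before it and are the 2 strands of a single CACGTG, so they overlap. Gapdh had 1 match in the 50 bases after its start, outside the printed letters. The form GCGTG, searched on both strands and not capitalised, occurred 3 times in the printed Bnip3 bases, 2 times in those of Gapdh and not in those of Pgk1 or Tpi1. Over the full window of 250 bases before to 50 after the start, 32 of the 34 members had a RefSeq window and 24 of those (75%) held ACGTG, against 21.8% of the 27025 genes in the table. GCGTG was held by 22 of the 32 (68.8%), against 35.2% of those genes. The members include genes chosen as known targets of the factor, and the other genes were not matched to them in expression or base content. These contrasts are therefore a description and not a test. By window the ACGTG shares were 27 of 48 (56.2%) for the members and 19.6% of 32851 overall. Ldha held 5 ACGTG matches in its first window. Gpi1, Pfkl, Pfkp, Tpi1, Eno1, Pfkfb4, Pdk1 and Kdm3a held none, which says only that these letters are not in this window.

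Levels per kilobase used all annotated exons of a gene merged, which can exceed its transcript in length. Ranks between genes depend on this. On this scale Aldoa, Tpi1 and the enzymes from Gapdh to Ldha stood far above the carriers and regulators in Tri PD1+KLRG1+ cells. There, mean levels in CPM per kilobase were 774 for Ldha (lactate dehydrogenase A), 690 for Aldoa (aldolase A), 682 for Eno1 (enolase 1), 552 for Mif (macrophage migration inhibitory factor, a cytokine and hypoxia target), 411 for Gapdh (glyceraldehyde-3-phosphate dehydrogenase), 374 for Pkm (pyruvate kinase), 354 for Tpi1 (triosephosphate isomerase), 330 for Pgam1 (phosphoglycerate mutase) and 252 for Pgk1 (phosphoglycerate kinase). The glucose transporters Slc2a1 (GLUT1) and Slc2a3 (GLUT3) stood at 47.2 and 44.2 CPM per kilobase there, Hif1a at 48.2 and Hk2 (hexokinase 2) at 3.37. In Iso PD1-KLRG1- cells Mif led with 773 CPM per kilobase, followed by Eno1 at 449 and Ldha at 437, and Slc2a3 stood at 7.41. Vegfa, the angiogenic growth factor, was near the bottom at 0.82 CPM per kilobase in Tri PD1+KLRG1+ cells. The map of all members across libraries shows these contrasts as differences from each gene's own mean.

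**Figure D1:**
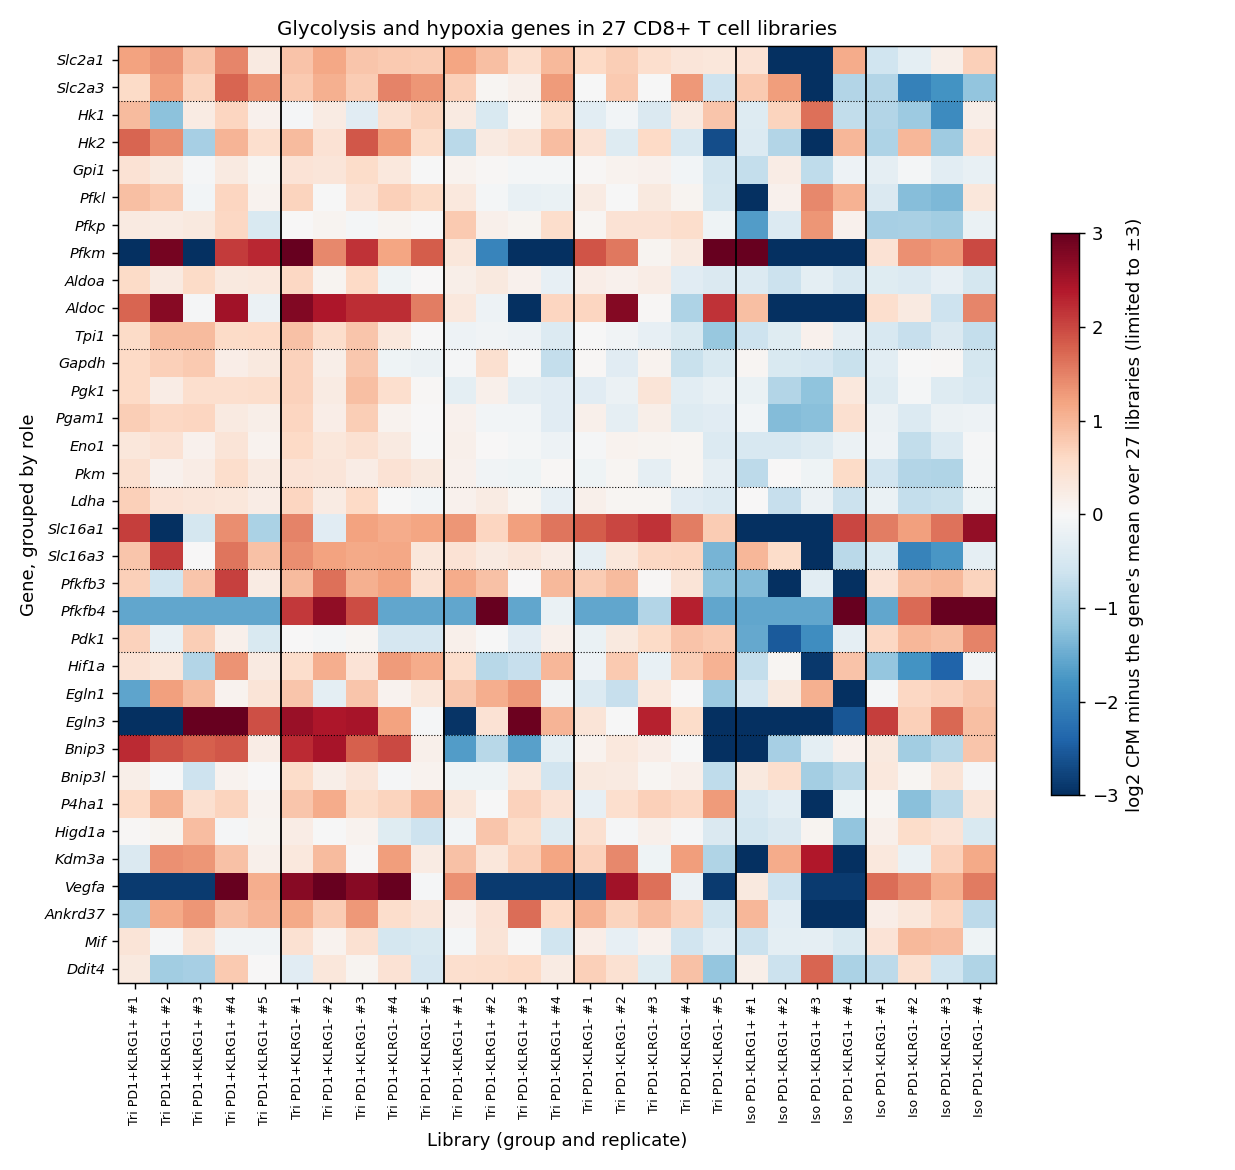
Each row is a member and each column a library, coloured by log2 CPM minus that gene's mean over the 27 libraries, limited to 3 either way, with solid lines between groups and dotted lines between roles. Tpi1, Pgk1 and Bnip3 are high in the Tri PD1+ columns, Pdk1 and Mif are high in the Iso PD1-KLRG1- columns, and the Iso PD1-KLRG1+ columns are uneven.

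Among treated KLRG1+ cells, those with PD-1 carried more transcript of 2 enzymes that follow each other in the pathway, Tpi1 and Gapdh. Tpi1, which interconverts the 3-carbon sugar phosphates, stood at 867, 1124, 1128, 872 and 878 CPM in the Tri PD1+KLRG1+ libraries and at 521, 536, 526 and 436 CPM in the Tri PD1-KLRG1+ libraries. Every PD1+ library was above every PD1- library. Tpi1 was higher by 1.00 ± 0.17 (SE) on the log2 scale, with an edgeR adjusted p of 0.00172. Gapdh, which oxidises glyceraldehyde 3-phosphate, stood at 1779, 1924, 2010, 1347 and 1426 CPM with PD-1 and at 1145, 1641, 1167 and 711 CPM without it. The groups overlapped at PD1- replicate 2 with its 1641 CPM, the highest of that group. Gapdh was higher by 0.65 ± 0.16 (SE) on the log2 scale, with an edgeR adjusted p of 0.036. These were the 2 of 34 members called, both higher, where 1.2% of all 14059 genes were called and 0.491% were called higher. The log2 fold change was above 0 for 29 of the 34 members, against 49.4% of all genes, and the median was 0.28 against -0.01 for all genes. By role, the fold change was above 0 for 5 of 5 lower enzymes, 8 of 9 upper enzymes and 8 of 9 hypoxia targets.

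The next members by p were Bnip3, Pgk1, Aldoa and Ldha, none of which passed the test with all groups in the fit. Bnip3, a mitophagy receptor induced in hypoxia, stood at 162, 128, 118, 125 and 39.7 CPM in Tri PD1+KLRG1+ and at 10.6, 19.0, 11 and 27.9 CPM in Tri PD1-KLRG1+. Its groups did not overlap, and the lowest PD1+ library was replicate 5. The log2 difference was 2.75 ± 0.88 (SE), with an edgeR adjusted p of 0.15. Pgk1, which makes the first ATP of the pathway, stood at 612, 477, 580, 574 and 584 CPM against 329, 449, 335 and 319 CPM, a log2 difference of 0.66 ± 0.24 (SE) with an edgeR adjusted p of 0.215. The Pgk1 groups did not overlap either. Aldoa, which splits fructose bisphosphate, stood at 2259, 1803, 2250, 1861 and 1866 CPM against 1699, 1851, 1648 and 1281 CPM, and the groups overlapped narrowly. Ldha, which reduces pyruvate to lactate, stood at 3148, 2546, 2440, 2422 and 2249 CPM against 2084, 2268, 2003 and 1622 CPM, with overlap only between PD1+ replicate 5 and PD1- replicate 2. Their edgeR adjusted p were 0.22 and 0.279. Groups did not overlap, with PD1+ higher, for 5 of 34 members (Tpi1, Pgk1, Pgam1, Pkm and Bnip3), where this held for 2.16% of all genes.

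The uneven Iso PD1-KLRG1+ libraries are not compared here, but they enter the fit through the gene filter, the name-series term and the shared estimate of the spread. Fitted without that group, 6 of 34 members were called, all higher, where 3.39% of 14008 genes were called. The 6 were Aldoa (log2 0.43, edgeR adjusted p = 0.0491), Tpi1 (1.06, 0.000143), Gapdh (0.71, 0.00499), Pgk1 (0.75, 0.0107), Pgam1 (0.68, 0.00572) and Bnip3 (2.78, 0.00777). Within the libraries without an RNA number, the log2 difference of Tpi1 was 1.01 with an edgeR adjusted p of 0.0163. Within those with one, which include 1 PD1- library of this comparison, it was also 1.01. Gapdh gave 0.57 (edgeR adjusted p = 0.251) and 0.97 in the same 2 series, so its call was not kept within either, the second with 1 PD1- library. It held under 9 of 14 other settings and was also lost with a fixed replicate block (0.64, adjusted p = 0.0922), with no name-series term (0.54, 0.339) and with only the groups compared (0.70, 0.0586). The Gapdh call was also lost when any of 5 libraries was left out: Tri PD1+KLRG1+ replicate 3 (adjusted p = 0.0514) or 5 (0.0507), or Tri PD1-KLRG1+ replicate 1 (0.0873), 3 (0.125) or 4 (0.2). In bulk samples, fewer cells that express a gene and less of its RNA per cell cannot be told apart.

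**Figure D2:**
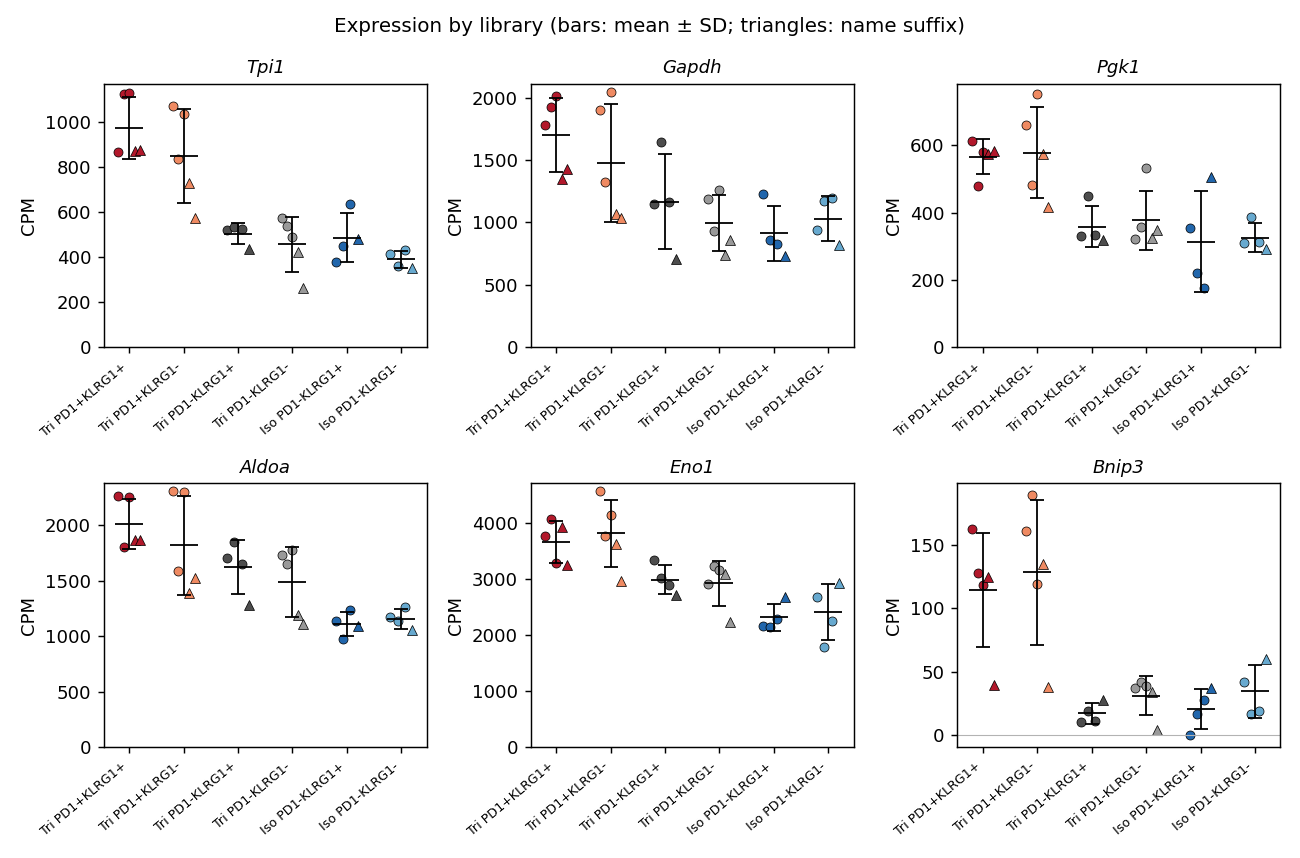
CPM of Tpi1, Gapdh, Pgk1, Aldoa, Eno1 and Bnip3 in each library of the 6 groups, with bars for the mean ± SD and triangles for libraries that carry an RNA number in their description. The Tri PD1+KLRG1+ libraries of Tpi1 (867 to 1128 CPM) lie above every PD1- library, and replicate 5 is the lowest of both PD1+ groups for Bnip3.

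Among treated KLRG1- cells, Tpi1 was again higher in PD1+ than in PD1- cells, and it was the 1 member of 34 called, where 1.56% of all genes were called and 0.619% were called higher. Its level was 1074, 839, 1039, 729 and 576 CPM in Tri PD1+KLRG1- and 576, 539, 488, 424 and 263 CPM in Tri PD1-KLRG1-. The groups met without crossing at 576 CPM, the lowest PD1+ and the highest PD1- value. The log2 difference was 0.90 ± 0.16 (SE), with an edgeR adjusted p of 0.00171. Within the libraries without an RNA number it was 0.89 with an adjusted p of 0.0404, and within those with one it was 0.95 with an adjusted p of 0.516. Log2 fold changes were above 0 for 28 of the 34 members, against 53.5% of all genes, with a median of 0.41 against 0.06. By role this held for 5 of 5 lower enzymes, 8 of 9 upper enzymes, 3 of 3 oxygen sensing genes and 6 of 9 hypoxia targets.

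Gapdh stood at 1904, 1327, 2044, 1069 and 1037 CPM with PD-1 and at 1191, 929, 1262, 735 and 858 CPM without it, with overlap. The log2 difference was 0.55 ± 0.15 (SE) and the edgeR adjusted p was 0.0583. Eno1, which makes phosphoenolpyruvate, stood at 4571, 3773, 4144, 3635 and 2965 CPM against 2906, 3232, 3169, 3097 and 2242 CPM, a log2 difference of 0.38 ± 0.13 (SE) with an adjusted p of 0.213. The Eno1 groups overlapped only through PD1+ replicate 5. Pgk1 stood at 660, 481, 753, 574 and 418 CPM against 323, 358, 532, 325 and 348 CPM, with a log2 difference of 0.61 ± 0.22 (SE). Bnip3 stood at 161, 189, 119, 135 and 38.0 CPM against 36.8, 42.1, 39.0, 33.7 and 3.84 CPM, with a log2 difference of 2.05 ± 0.78 (SE). Replicate 5 was the lowest library on both sides of the Bnip3 comparison and made the groups overlap. Pkm, the last ATP-making step, stood at 1958, 1911, 1721, 1982 and 1800 CPM against 1349, 1537, 1231, 1541 and 1229 CPM, a log2 difference of 0.44 ± 0.16 (SE) with an edgeR adjusted p of 0.235. The Pkm groups did not overlap, which also held for Slc2a1 and Tpi1, 3 of 34 members with PD1+ higher against 5.06% of all genes.

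Without the Iso PD1-KLRG1+ group in the fit, 6 of 34 members were called in KLRG1- cells, where 3.84% of genes were called. They were Tpi1 (log2 0.93, edgeR adjusted p = 0.000121), Gapdh (0.58, 0.0124), Pgk1 (0.64, 0.0176), Pgam1 (0.51, 0.0265), Pkm (0.47, 0.0412) and Bnip3 (2.09, 0.0241). Tpi1, Gapdh, Pgk1, Pgam1 and Bnip3 were thus called in both KLRG1 classes under this fit. The 2 comparisons share no library, but they share the fit and the replicate numbers. Between the 2 PD1+ groups 9 of 10 libraries correlated best with their own number. The labels do not say whether same-numbered libraries came from the same mice, so the 2 comparisons may not be independent. The difference between the PD-1 effects in KLRG1+ and KLRG1- cells was tested as an interaction, in which no member and no gene was called (0%). At an unadjusted p under 0.05, 638 genes (4.54%) passed, among them 1 member, Pfkfb4, named here after its values were seen. The interaction was 0.11 ± 0.23 (SE) for Tpi1, 0.10 ± 0.22 (SE) for Gapdh and 0.71 ± 1.10 (SE) for Bnip3 on the log2 scale.

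**Figure D3:**
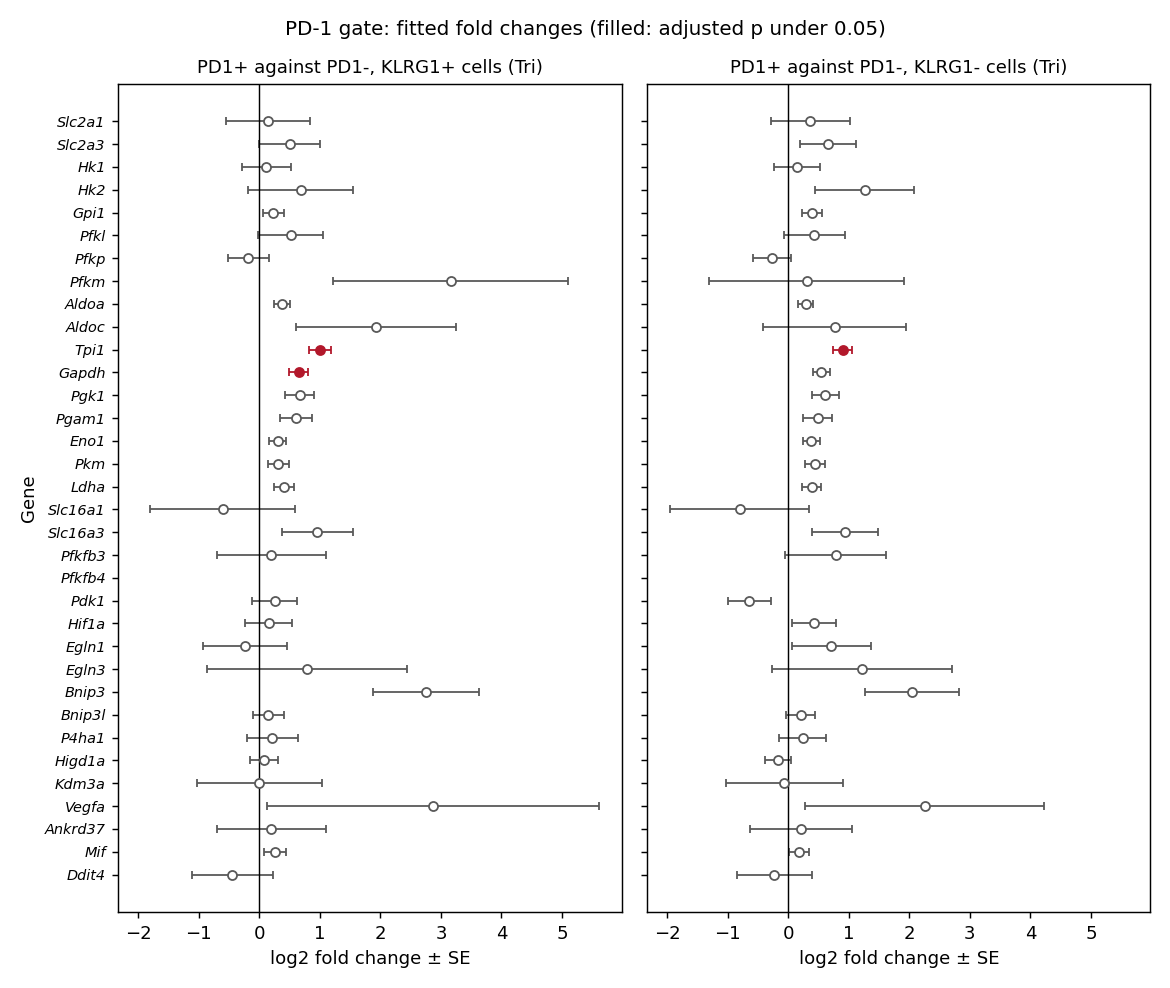
Log2 fold change ± SE of PD1+ over PD1- cells under Tri for the members other than Pfkfb4, in KLRG1+ and in KLRG1- cells, with filled red points for an edgeR adjusted p under 0.05. Tpi1 (1.00 and 0.90) is red in both panels and Gapdh (0.65 and 0.55) in the KLRG1+ panel, and Bnip3 has large differences with wide errors.

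No marker of other cells and no proliferation gene was called with PD-1, where 1.2% (KLRG1+) and 1.56% (KLRG1-) of all genes were called. This held for all 16 myeloid markers, 9 tumour and stroma markers, 4 CD4 and regulatory T cell markers and 14 proliferation genes tested. In that order, fold changes were above 0 for 13, 4, 3 and 11 in KLRG1+ cells, with medians of 1.33, -0.25, 2.40 and 0.35. In KLRG1- cells this held for 11, 3, 2 and 9, with medians of 0.30, -1.35, 0.39 and 0.08. The medians of the 34 members were 0.28 and 0.41. Summed myeloid markers ran from 190 to 671 CPM and 231 to 612 CPM in the PD1+ groups, and from 174 to 219 CPM and 139 to 547 CPM in the matching PD1- groups. Summed CD4 and regulatory T cell markers ran from 102 to 211 CPM in Tri PD1+KLRG1+ against 32.9 to 49.3 CPM in Tri PD1-KLRG1+, and from 90.7 to 279 CPM against 46.0 to 176 CPM in KLRG1- cells. Most of that sum was Ikzf2, at group means of 148 and 165 CPM in PD1+ and 31.3 and 75.4 CPM in PD1- cells, while the defining genes Cd4 (0 to 2.08 CPM) and Foxp3 (1.57 to 9.61 CPM) were near 0. Proliferation genes summed to means of 2550 and 1504 CPM in the PD1+ groups and 2136 and 1368 CPM in the PD1- groups. The part of any of these lists in the member results was not tested.

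The 15 enzymes from the hexokinases to Ldha were also summed in each library as a description of the whole pathway. The sum was 15852 ± 1240 CPM (SD, n = 5) in Tri PD1+KLRG1+, 15215 ± 2471 (SD, n = 5) in Tri PD1+KLRG1-, 12239 ± 1155 (SD, n = 4) in Tri PD1-KLRG1+ and 11528 ± 1398 (SD, n = 5) in Tri PD1-KLRG1-. In the isotype groups it was 10150 ± 1133 (SD, n = 4) with KLRG1 and 9250 ± 1012 (SD, n = 4) without. In this order the Tri PD1+KLRG1+ libraries overlapped with Tri PD1+KLRG1- and lay above every PD1- library. The sum also differed by name series. In Tri PD1+KLRG1- cells it ran from 14518 to 18060 CPM without an RNA number and from 12325 to 13688 CPM with one, and in Tri PD1-KLRG1- cells from 12244 to 12688 CPM and from 9333 to 10950 CPM. In Tri PD1-KLRG1+ cells it was 11852 to 13248 CPM and 10779 CPM, while the series overlapped in Tri PD1+KLRG1+ cells (15791 to 17464 and 13986 to 15922 CPM). In the isotype groups the library with an RNA number was not the lowest, at 10493 CPM against 8193 to 9602 CPM without KLRG1 and at 11072 CPM against 9086 to 11186 CPM with it. Within each series the PD1+ libraries of both KLRG1 classes were above their PD1- counterparts.

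**Figure D4:**
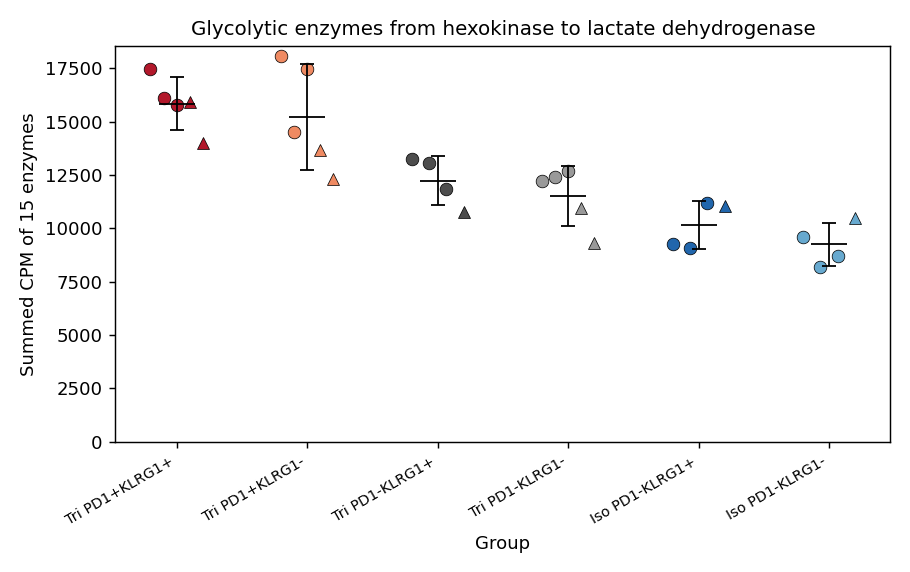
Summed CPM of the 15 enzymes from hexokinase to lactate dehydrogenase in each library, by group, with bars for the mean ± SD and triangles for libraries with an RNA number in their description. The group means fall from 15852 CPM in Tri PD1+KLRG1+ to 9250 CPM in Iso PD1-KLRG1-, and in 3 of the 4 Tri groups the triangles lie below the other libraries.

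The carriers and isozymes differed in which copy dominated. Slc16a3 (MCT4, a lactate exporter induced by hypoxia) stood at 73.2, 176, 41.7, 125 and 76.0 CPM in Tri PD1+KLRG1+ and at 55.6, 49.8, 53.0 and 48.1 CPM in Tri PD1-KLRG1+. The PD1- values lay inside the wide PD1+ range. Its share of the pair with Slc16a1 (MCT1), per exon length, was 72.2% ± 22.4 (SD, n = 5) and 62.7% ± 12.7 (SD, n = 5) in the PD1+ groups, 46.7% ± 7.08 (SD, n = 4) and 33.9% ± 7.90 (SD, n = 5) in the Tri PD1- groups and 18.6% ± 7.17 (SD, n = 4) in Iso PD1-KLRG1-. In Iso PD1-KLRG1+ it was 72.8% ± 47.1 (SD, n = 3), as high as in the PD1+ groups and with a spread from 18.5% to 100%. Neither carrier was called in a PD-1 comparison, with log2 differences of 0.96 ± 0.59 (SE) and 0.94 ± 0.55 (SE) for Slc16a3. Bnip3 made up 48.0% and 45.1% of its pair with the related mitophagy receptor Bnip3l in the PD1+ groups and 14.0% to 19.5% in the other 4. Bnip3l itself averaged 190 to 243 CPM in all 6 groups. Hk1 supplied 88.5% to 93.8% of the hexokinase pair and Aldoa 96.9% to 99.5% of the aldolase pair in the group means, and Aldoc averaged 6.09 to 63.7 CPM. Among the phosphofructokinases, Pfkp (the platelet type) held the largest mean share in every group, from 56.8% to 73.3%, with Pfkl (the liver type) at 26.2% to 37.3%, while Pfkm (the muscle type) averaged 1.30 to 14.8 CPM. Slc2a1 made up 49.7% to 58.8% of the glucose transporter pair in the Tri groups and 74.8% ± 11.3 (SD, n = 4) in Iso PD1-KLRG1-, and it averaged 43.1% ± 41.1 (SD, n = 3) in Iso PD1-KLRG1+.

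Between the KLRG1 classes under Tri no member was called. Among PD1+ cells none passed, where 0.0569% of all genes (8) were called in edgeR and 6.61% had an unadjusted p under 0.05, and 18 of 34 members had a log2 fold change above 0 against 45% of genes. The smallest p after Pfkfb4 was that of Higd1a (a mitochondrial hypoxia-induced protein), which stood at 150, 156, 278, 143 and 156 CPM in KLRG1+ and at 171, 147, 157, 114 and 95.9 CPM in KLRG1- cells. These groups overlapped, and replicate 3 of the KLRG1+ group was the highest. Hif1a, the oxygen-regulated subunit of the factor, stood at 279, 260, 112, 522 and 248 CPM against 298, 440, 274, 499 and 448 CPM, a log2 difference of -0.52 ± 0.36 (SE) with overlap. The difference was 0.23 ± 0.15 (SE) for Gapdh, 0.21 ± 0.16 (SE) for Tpi1 and 0.16 ± 0.12 (SE) for Aldoa.

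Among treated PD1- cells no member and no gene was called between the KLRG1 classes by edgeR (0%), while 675 genes (4.8%) and no member had an unadjusted p under 0.05, and DESeq2 called 192 genes and no member. The smallest p was that of Pfkm, which stood at 4.25, 0.740, 0 and 0.230 CPM in KLRG1+ and at 12.7, 10.2, 3.55, 4.07 and 27.9 CPM in KLRG1- cells. All but KLRG1+ replicate 1 were below every KLRG1- library, at levels close to the counting limit. Egln1, the main prolyl hydroxylase, stood at 99.4, 122, 139 and 52.3 CPM against 42.4, 35.1, 70.6, 56.7 and 26.4 CPM, a log2 difference of 1.01 ± 0.70 (SE) with an adjusted p of 1. KLRG1+ replicate 4 made the Egln1 groups overlap. Aldoc, the brain-type aldolase, stood at 16.1, 11.6, 0 and 20.3 CPM against 20.4, 88.3, 13.1, 6.69 and 58.3 CPM, with overlap. Of the 34 members 23 had a fold change above 0, against 48.9% of genes. This depended on the libraries: 15 were above 0 without KLRG1- replicate 5, with a member median of -0.03 in place of 0.10. In the libraries without an RNA number 15 were above 0 as well. The main-fit values of Bnip3 and Pdk1 lay below 0, with log2 differences of -0.87 ± 0.82 (SE) and -0.46 ± 0.38 (SE).

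In isotype-treated PD1- cells the KLRG1+ and KLRG1- libraries differed in 4 members, 2 higher and 2 lower with KLRG1, where 8.66% of all genes were called, 1.24% higher and 7.43% lower. Pdk1 is a kinase that inhibits pyruvate dehydrogenase and so limits the oxidation of pyruvate in the mitochondria. It stood at 23.3, 11.7, 18.4 and 55.8 CPM in KLRG1+ and at 105, 135, 128 and 190 CPM in KLRG1- libraries. Every KLRG1+ library was below every KLRG1- library. The log2 difference was -2.34 ± 0.43 (SE), with an edgeR adjusted p of 0.000744, and it was -2.78 (adjusted p = 0.00161) without an RNA number. With an RNA number, where each group has 1 library, it was -1.86. With any 1 of the 8 libraries left out it ran from -2.97 to -2.03 with adjusted p of at most 0.00395, and with the number of detected genes as a covariate it was -2.64 and lost the call (adjusted p = 0.111). Mif stood at 243, 307, 313 and 274 CPM against 504, 738, 718 and 344 CPM, again without overlap. Mif fell by 0.96 ± 0.19 (SE) on the log2 scale, with an edgeR adjusted p of 0.00217. Its difference was -1.19 (adjusted p = 0.00346) without an RNA number and -0.42 with one, where 1 library is set against 1. With 1 library left out it ran from -1.13 to -0.87 with adjusted p of at most 0.0106, and the call was lost with detected genes as a covariate (-0.96, 0.271) and with only the groups compared (-0.97, 0.0599).

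Slc2a3 and Hk1 were the 2 members called higher in the isotype KLRG1+ group, and both calls depended on single libraries. Slc2a3 stood at 244, 337, 0 and 76.4 CPM against 76.8, 34.8, 40.9 and 62.4 CPM. The groups overlapped, with replicates 1 and 2 high and replicate 3, the shallow library, at no count. The log2 difference was 1.76 ± 0.54 (SE), with an edgeR adjusted p of 0.0395, and without KLRG1+ replicate 2 it was 1.19 with an adjusted p of 0.153. The call was also lost without KLRG1+ replicate 1 (adjusted p = 0.0858) and without KLRG1- replicates 2, 3 or 4 (0.123, 0.1 and 0.0755). Hk1, the constitutive hexokinase, stood at 169, 351, 691 and 133 CPM against 121, 104, 60.0 and 250 CPM, with overlap and with the shallow library highest. Its log2 difference was 1.43 ± 0.45 (SE), with an edgeR adjusted p of 0.0469. Without KLRG1+ replicate 3 the Hk1 difference was 0.81 with an adjusted p of 0.197, and in the libraries with an RNA number, 1 in each group, it was -0.998. Leaving out KLRG1+ replicate 2 or KLRG1- replicate 1, 2 or 3 gave adjusted p of 0.0822, 0.0864, 0.117 and 0.134. The number of members called in this comparison ran from 2, without KLRG1+ replicate 2 or KLRG1- replicate 2 or 3, to 9, without KLRG1+ replicate 1.

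Pkm and Pfkfb3 were next by p in the isotype comparison and did not pass. Pkm stood at 856, 1498, 1364 and 2189 CPM against 995, 805, 798 and 1429 CPM, a log2 difference of 0.55 ± 0.18 (SE) with an edgeR adjusted p of 0.0576. Pfkfb3, which makes the activator of phosphofructokinase, stood at 9.28, 0, 18.4 and 0.109 CPM against 30.5, 43.2, 45.2 and 36.8 CPM, without overlap and with an adjusted p of 0.0731. Groups did not overlap for 5 of 34 members (Pfkfb3, Pdk1, Egln3, Vegfa and Mif), all lower with KLRG1, where this held for 16.2% of all genes. Fold changes above 0 were found for 12 of 34 members against 34.6% of genes, and the medians were -0.12 and -0.52. Under DESeq2-type size factors 17 members were above 0, with medians of 0.04 for the members and -0.37 for all genes. Other cells differed too: summed myeloid markers ran from 258 to 10666 CPM with and 983 to 3946 CPM without KLRG1, and summed tumour and stroma markers from 101 to 3782 CPM and 103 to 155 CPM, and their part in the result was not tested.

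Treatment was compared first in PD1-KLRG1- cells. No member was called by edgeR with all groups in the fit, where 0.804% of genes (113) were called, while 8 members had an unadjusted p under 0.05 against 8% of genes. Hif1a stood at 186, 358, 178, 347 and 426 CPM under Tri and at 92.9, 59.4, 39.2 and 194 CPM under Iso, and the groups overlapped at Iso replicate 4. Its log2 difference was 1.62 ± 0.40 (SE), with an edgeR adjusted p of 0.0537. Slc2a3, the high-affinity glucose transporter, stood at 139, 242, 141, 346 and 91.5 CPM under Tri and at 76.8, 34.8, 40.9 and 62.4 CPM under Iso. Every treated library was above every isotype library, and the log2 difference was 1.78 ± 0.52 (SE) with an adjusted p of 0.126.

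Pfkp stood at 582, 750, 749, 803 and 512 CPM under Tri and at 278, 283, 270 and 489 CPM under Iso, a log2 difference of 1.04 ± 0.34 (SE) with an edgeR adjusted p of 0.212. The Pfkp groups did not overlap, so this held for 2 of 34 members with Slc2a3, against 2.41% of all genes. Mif ran the other way, at 432, 316, 411, 253 and 302 CPM against 504, 738, 718 and 344 CPM, a log2 difference of -0.64 ± 0.18 (SE) with an adjusted p of 0.104. Iso replicate 4 was the lowest of its group and made the Mif groups overlap. Aldoa stood at 1734, 1645, 1772, 1192 and 1109 CPM against 1172, 1134, 1263 and 1051 CPM, with the 2 treated libraries that carry an RNA number among the isotype values. Pkm averaged 1377 ± 155 CPM (SD, n = 5) against 1007 ± 296 (SD, n = 4), with overlap through Iso replicate 4.

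Fitted without the Iso PD1-KLRG1+ group, 4 of 34 members were called in this comparison, where 2.16% of genes were called. Slc2a3 (log2 1.75 ± 0.31 (SE), edgeR adjusted p = 0.00296), Pfkp (1.04 ± 0.21, 0.00688) and Hif1a (1.62 ± 0.35, 0.0135) were higher under Tri, and Mif (-0.62 ± 0.16, 0.0378) was lower. With all groups in the fit, 22 of 34 members had a fold change above 0 against 45.3% of genes, with a median of 0.24. In the libraries with an RNA number, where the Iso group has 1 library, 12 members had, with a median of -0.15. The other cells moved in the same comparison: none of 16 myeloid markers had a fold change above 0, and 1 myeloid, 1 tumour and stroma and 1 natural killer marker were called lower under Tri. Summed myeloid markers ran from 139 to 547 CPM under Tri and from 983 to 3946 CPM under Iso, and summed tumour and stroma markers from 36.6 to 92.2 CPM and from 103 to 155 CPM. Their part in the member results was not tested.

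**Figure D5:**
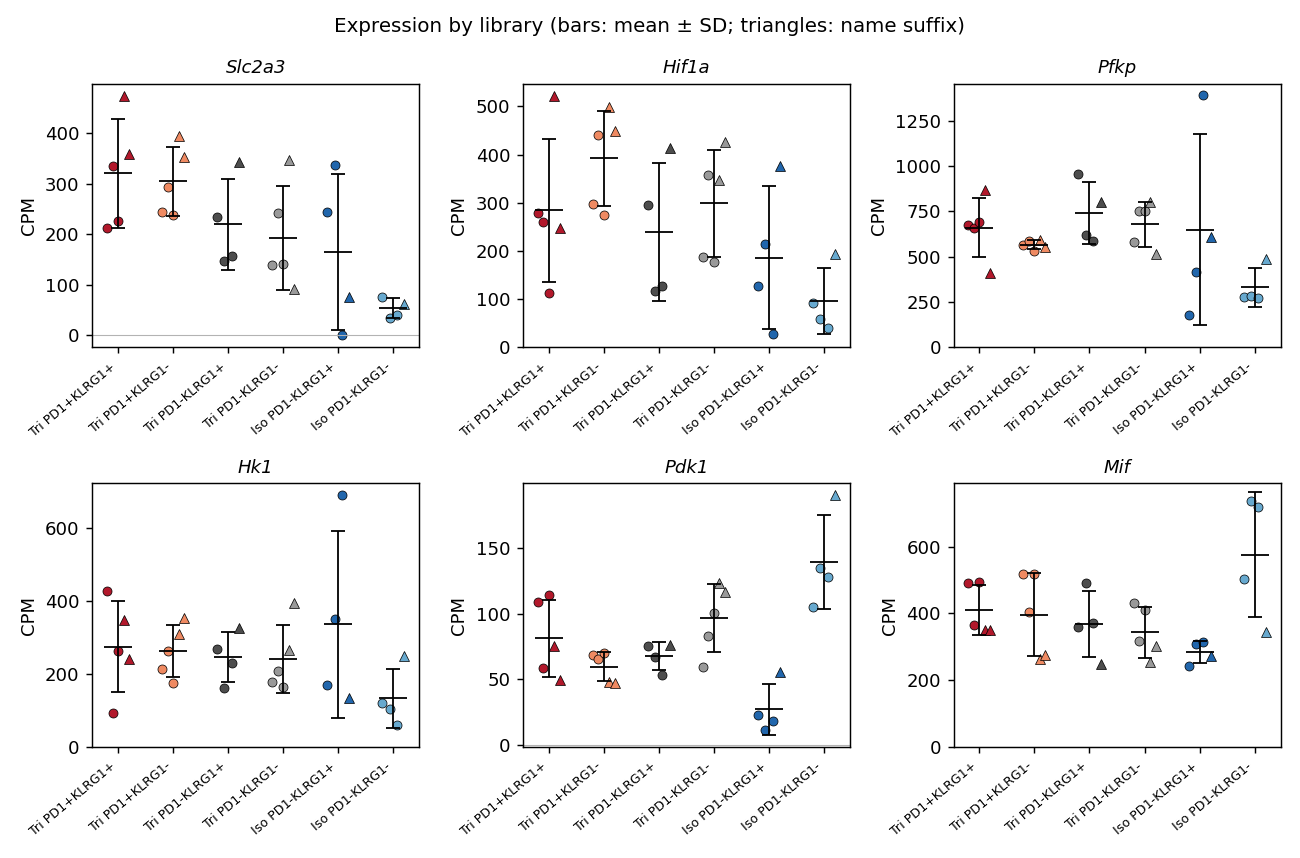
CPM of Slc2a3, Hif1a, Pfkp, Hk1, Pdk1 and Mif in each library of the 6 groups, with bars for the mean ± SD and triangles for libraries with an RNA number in their description. Slc2a3, Hif1a and Pfkp are low in the Iso PD1-KLRG1- group (means of 53.7, 96.5 and 330 CPM), Pdk1 and Mif are high there (139 and 576 CPM), and the Iso PD1-KLRG1+ libraries spread widely.

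In PD1-KLRG1+ cells Aldoa was the 1 member of 34 called between treatments, where 6.08% of all genes were called and 5.46% were called higher. It stood at 1699, 1851, 1648 and 1281 CPM under Tri and at 1139, 972, 1235 and 1089 CPM under Iso, and the groups did not overlap. Aldoa was higher under Tri by 0.53 ± 0.14 (SE) on the log2 scale, with an edgeR adjusted p of 0.0227. The call held under 4 of 12 other settings. It was lost with DESeq2-type size factors (0.30, adjusted p = 0.18), in DESeq2 itself (0.32, 0.0707), with no count filter (0.0548), no name-series term (0.0701), a random replicate block (0.222), the number of detected genes as a covariate (0.32, 0.527) and only the groups compared (0.425). It was also lost without Iso PD1-KLRG1+ replicate 2 (adjusted p = 0.0602) and without Tri PD1-KLRG1+ replicate 1 (adjusted p = 0.0631). Without Iso PD1-KLRG1+ replicate 1, 3 or 4 the number of members called was 3. Within the series the Aldoa difference was 0.65 (adjusted p = 0.0378) without an RNA number and 0.32 with one, where each group has 1 library. Higd1a stood at 139, 264, 215 and 112 CPM under Tri and at 101, 108, 157 and 64.6 CPM under Iso, with overlap and an edgeR adjusted p of 0.0571. Pdk1 stood at 75, 66.9, 53.2 and 75.7 CPM against 23.3, 11.7, 18.4 and 55.8 CPM, overlapping through Iso replicate 4, with an adjusted p of 0.058.

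Pfkfb3 stood at 49.9, 42.7, 23.4 and 45.1 CPM under Tri and at 9.28, 0, 18.4 and 0.109 CPM under Iso in the PD1-KLRG1+ cells. The Pfkfb3 groups did not overlap, and its edgeR adjusted p was 0.0839. Egln3 stood at 0.173, 3.21, 18.7 and 4.83 CPM under Tri, and under Iso it had a count only in replicate 4 (0.273 CPM). Eno1 stood at 3335, 3019, 2892 and 2714 CPM against 2164, 2142, 2294 and 2673 CPM, without overlap, and its adjusted p was 0.152. Groups did not overlap for 4 of 34 members (Aldoa, Eno1, Pfkfb3 and P4ha1), all higher under Tri, where this held for 8.72% of genes. Fold changes above 0 were found for 29 of 34 members (23 with DESeq2-type size factors) against 62.4% of genes. The medians were 0.32 for the members and 0.34 for all genes, and 0.11 and 0.15 with those size factors. In this comparison 3 of 16 myeloid and 2 of 9 tumour and stroma markers were called lower under Tri. Their sums ran from 174 to 219 CPM and from 0.931 to 51.1 CPM under Tri, and from 258 to 10666 CPM and from 101 to 3782 CPM under Iso. Mitochondrial transcripts made up group means of 3.03% and 2.45% of counts in the isotype groups and 0.751% to 0.926% in the Tri groups. By library they made up 2.15%, 1.11%, 0.353% and 8.51% in Iso PD1-KLRG1+ and 1.37% to 3.62% in Iso PD1-KLRG1-. Tri libraries ran from 0.416% to 1.28%, so the Iso PD1-KLRG1+ libraries overlapped with them. The part of either in the treatment results was not tested.

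Whether the treatment effect differed between KLRG1+ and KLRG1- cells was tested as an interaction, in which Mif was the 1 member of 34 called, where 3.59% of genes were called and 3.41% were called higher. The Mif effect was -0.64 in KLRG1- and 0.33 in KLRG1+ cells on the log2 scale, a difference of 0.97 ± 0.27 (SE) with an edgeR adjusted p of 0.040. Pdk1 was next, with a difference of 1.88 ± 0.56 (SE) and an adjusted p of 0.0573. The Mif call was lost under 10 of the 17 leave-one-out fits: without Iso PD1-KLRG1+ replicate 1, Iso PD1-KLRG1- replicates 2 or 3, Tri PD1-KLRG1- replicates 2, 3 or 4 or any of the 4 Tri PD1-KLRG1+ libraries, with adjusted p from 0.0512 to 0.0872. It held under 4 of 13 other settings, with differences from 0.27 to 1.24. The call was lost with DESeq2-type size factors (adjusted p = 0.102), library totals (0.0517), no count filter (0.209), no name-series term (0.078) and the libraries with an RNA number. It was also lost with either replicate block (0.0553 and 0.175), detected genes as a covariate (0.406) and only the groups compared (0.102). Both isotype groups enter this test, and the comparisons it combines share no library.

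The rest of the members were described by their ranges. Pfkfb4, a relative of Pfkfb3, had no count in any of the 5 Tri PD1+KLRG1+ libraries, where 3 counts over the group equal 0.0361 CPM, and reached at most 9.94 CPM elsewhere, so no fold is given. Egln3, a prolyl hydroxylase that is itself a hypoxia target, ran from 0 to 23.7 CPM over the 27 libraries. Vegfa averaged 0.428 to 8.79 CPM, Hk2 8.31 to 21.9 CPM, Ddit4 (an inhibitor of mTORC1) 19.4 to 34.7 CPM and Ankrd37 (a hypoxia target) 13.6 to 35.2 CPM across groups. Kdm3a, a histone demethylase induced in hypoxia, averaged 77.3 to 97.3 CPM, and P4ha1, a collagen prolyl hydroxylase subunit, 41.9 to 124 CPM. Gpi1, which makes fructose 6-phosphate, averaged 653 and 711 CPM in the PD1+ groups and 459 to 565 CPM in the others. Reads could be shared with processed copies for some members: the copy Pgk1-rs7 held 2.84% of the Pgk1 count, Bnip3l-ps 1.44%, Pgam1-ps2 0.561% and Eno1b 0.384%.

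Other genes of these pathways were counted from lists. In the PD-1 comparisons the sole call was Anxa2 (annexin A2, listed with the other hypoxia targets), which was higher in PD1+ KLRG1- cells by 0.96 ± 0.16 (SE) on the log2 scale (1522 against 777 CPM, edgeR adjusted p = 0.000803). Of the 25 other hypoxia targets tested, 18 and 17 had fold changes above 0 in KLRG1+ and KLRG1- cells, with medians of 0.39 and 0.55, where 49.4% and 53.5% of all genes were above 0 with medians of -0.01 and 0.06. The pyruvate entry list holds the carriers Mpc1 and Mpc2 and genes of pyruvate dehydrogenase, its phosphatases and pyruvate carboxylase. Of these 10 genes, 1 and 3 were above 0, with medians of -0.26 and -0.10, against the same values over all genes. None of 14 other isozymes and carriers, 10 pyruvate entry genes, 7 pentose phosphate genes, 6 other oxygen sensing genes or 16 regulators was called for PD-1. Bhlhe40, a hypoxia-induced repressor that is also active in effector T cells, averaged 519 CPM in Tri and 148 CPM in Iso PD1-KLRG1- cells, higher by 1.80 on the log2 scale with an edgeR adjusted p of 0.000208. Anxa2 was higher in the same comparison by 0.76 with an adjusted p of 0.0278. In isotype-treated cells both were higher with KLRG1, Anxa2 at 1217 against 468 CPM (adjusted p = 2.5e-05) and Bhlhe40 at 437 against 148 CPM (adjusted p = 0.000384). In that comparison, where 7.43% of all genes were called lower, 3 of the 25 other hypoxia targets were called lower (Stc2, Narf and Gys1), with 2 of 14 other isozymes and carriers (Eno3 and Slc2a8) and 1 of 10 pyruvate entry genes (Pdp1), and all but Narf had no count in the Iso PD1-KLRG1+ libraries. For treatment in PD1-KLRG1+ cells, which uses the same Iso libraries and where 5.46% of all genes were called higher, 5 of these 6 were called higher under Tri, all but Stc2, and Pdk2, an isozyme of Pdk1, was called lower. In the treatment by KLRG1 interaction Eno3 and Slc2a8 were called higher and Anxa2 and Bhlhe40 lower, at -0.95 (adjusted p = 0.0309) and -1.30 (adjusted p = 0.0361). In KLRG1 comparisons under Tri and in the PD-1 interaction none of these lists had a call.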

How the data were processed

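The deposited table holds raw read counts per gene made by the authors, whole numbers with no normalization, and per the submitters' processing notes DESeq2 1.26.0 was used, with no role given. The aligner, counter and genome build were not given in the sources used here, nor was the gene annotation. The 34 members and the lists of other genes were chosen with earlier results of these data known. Of 47729 Ensembl identifiers, 47224 were matched to a symbol.

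Counts were filtered (edgeR filterByExpr, minimum count 10), scaled by TMM and fitted over all 27 libraries with 6 group means and the name series, using edgeR 4.0.16 (robust quasi-likelihood F test) in R 4.3.3. Benjamini-Hochberg adjustment ran over all 14059 genes, and under 0.05 was called. Sharing the fit means that an uneven group can change the errors of all comparisons, and its part in the calls was not tested. CPM are TMM-scaled, log2 CPM used a prior count of 2, and an SE is the log2 fold change divided by the root of F. Exon lengths merge all annotated exons of a gene in GENCODE M21, such as 0.745 kb for Mif and 13.4 kb for Pfkp. Levels per kilobase and isozyme shares depend on them. The fit was first run on simulated counts with known folds, to check that the median fold was recovered. The simulated means and spread were taken without the Iso PD1-KLRG1+ group, and no name-series effect was simulated. Neither was therefore part of that check. Alternatives used DESeq2 1.42.0, limma 3.58.1 (voom), other scalings, filters and sets of libraries, and figures used matplotlib 3.10.9. Totals of 6991521 to 26284630 counts limit low genes by counting error, and the library of 93198 counts limits all but the strongest.

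Every member is described by role. Values per library were given for members called in at least 2 comparisons and for up to 6 members with the smallest p in each, Pfkfb4 apart, and for up to 3 called genes of each other list.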

Additional observations from a re-analysis of the deposited data

Results flagged for a closer look

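Of 209 sets of 4 or 5 libraries of a group, 23 had 1 library far from the others by Dixon's test, where chance gives about 1 in 20 groups. Among the enzymes and carriers, the libraries that stood apart were Tri PD1+KLRG1- replicate 2 for Slc2a1 (174 CPM, others at most 140), Iso PD1-KLRG1- replicate 4 for Pfkp (489 CPM, others at most 283) and Tri PD1-KLRG1+ replicate 4 for Tpi1, which was low at 436 CPM. Pgk1 was low in Tri PD1+KLRG1+ replicate 2 (477 CPM) and high in Tri PD1-KLRG1+ replicate 2 (449 CPM) and Tri PD1-KLRG1- replicate 3 (532 CPM). Pgam1 was low in Iso PD1-KLRG1- replicate 2 (344 CPM).

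In the Iso PD1-KLRG1+ group a single library held nearly all counts of a gene: replicate 1 for Pfkm (36.7 CPM) and Aldoc (24.3 CPM), and replicate 4 for Slc16a1 (86.0 CPM), Pfkfb4 (7.21 CPM) and Egln3 (0.273 CPM). Pfkfb4 was likewise seen mainly in Tri PD1-KLRG1+ replicate 2 (4.32 CPM) and Tri PD1-KLRG1- replicate 4 (2.04 CPM), Egln3 was high in Tri PD1-KLRG1- replicate 3 (12.2 CPM) and Vegfa in Tri PD1+KLRG1+ replicate 4 (15.5 CPM) and Tri PD1-KLRG1+ replicate 1 (2.60 CPM).

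Bnip3 was low in Tri PD1-KLRG1- replicate 5 (3.84 CPM) and Bnip3l in Tri PD1+KLRG1+ replicate 3 (132 CPM), the library in which Higd1a was high (278 CPM). Ddit4 was high in Iso PD1-KLRG1- replicate 2 (34 CPM). The mean log2 CPM over the 34 members was 6.83 in Iso PD1-KLRG1- replicate 4, above the other 3, and 7.37 in Tri PD1+KLRG1+ replicate 4, above the other 4.

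The treatment effect on Mif differed between KLRG1+ and KLRG1- cells by 0.97 ± 0.27 (SE) on the log2 scale, in an edgeR interaction test with an adjusted p of 0.040. The call held under 4 of 13 other settings (differences of 0.27 to 1.24) and in 7 of 17 fits with 1 library left out.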

How the results depend on the processing

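Of the counts of members called, 70 of 121 under other settings and 71 of 99 with 1 library left out stayed within 1.5 times the reported count. No member was called under any setting run for KLRG1 in treated PD1+ cells, KLRG1 in treated PD1- cells or the PD-1 by KLRG1 interaction. All settings of these comparisons are among those that stayed, so the pooled shares overstate how steady the other comparisons were. The cause of the moves below was not tested. Settings that leave out libraries also have fewer samples. Counts with 1 library left out ran from 1 to 2 for PD-1 in KLRG1+ and from 1 to 2 in KLRG1- cells, from 2 to 9 for KLRG1 in isotype cells, from 0 to 1 for Tri in KLRG1- cells (1 without Iso replicate 4), and from 0 to 3 for Tri in KLRG1+ cells and for its interaction.

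Counts in the libraries with an RNA number are left out where a compared group has 1 library there. For PD-1 in KLRG1+ cells (2 called) the count was 1 with no name-series term and 1 in libraries without an RNA number. It was 6 in DESeq2, 4 without 3 divergent libraries (replicates 3 and 4 of Iso PD1-KLRG1+ and replicate 5 of Tri PD1-KLRG1-) and 6 without the Iso PD1-KLRG1+ group. For PD-1 in KLRG1- cells (1 called) it was 2 with median-ratio scaling, library totals or no count filter, 0 with an RNA number, 5 in DESeq2, 2 without the 3 libraries, 6 without the group, and 5 with only the groups compared. Leaving out PD1+KLRG1- replicate 2 or PD1-KLRG1- replicate 5 also gave 2. For KLRG1 in isotype cells (4 called) it was 7 with no filter, 2 with no series term, 10 in DESeq2, 1 with the number of detected genes as a covariate and 2 with only the groups compared. For Tri in KLRG1- cells (0 called) it was 1 with library totals, 3 with no filter, 1 with a minimum count of 50, 3 in DESeq2, 4 without the 3 libraries, 4 without the group, 1 with detected genes and 2 with only the groups compared.

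For Tri in KLRG1+ cells (1 called) it was 0 with median-ratio scaling, no filter, no series term, detected genes or only the groups compared. It was 3 with a minimum of 50, 3 without an RNA number, 4 in DESeq2 and 5 without the 3 libraries. For the interaction of Tri with KLRG1 (1 called) the count was 0 with median-ratio scaling, library totals, no series term, detected genes or only the groups compared. It was 2 with a minimum of 50, 2 without an RNA number, 3 in DESeq2 and 4 without the 3 libraries.

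Replicate numbers were not treated as pairs, since the labels do not say what they mark and 13 of 31 same-numbered pairs correlated above 0.1 (r from -0.22 to 0.56 over 4416 genes), short of every pair. Some gates shared more: between the 2 PD1+ groups 9 of 10 libraries correlated best with their own number, and the Tri replicate 4 pairs had r from 0.29 to 0.56. With a fixed replicate block the count was 1 for PD-1 in KLRG1+ cells, where the Gapdh call ended, and 0 for the treatment interaction. With a random replicate block in limma-voom it was 7 for PD-1 in KLRG1- cells and 0 for that interaction, where Hk1 turned to 0.096.

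Directions reversed in 10 cases. In libraries with an RNA number, where each Iso group has 1 library, Hk1 for KLRG1 in isotype cells was -0.998. In the same libraries Ldha and Pkm for Tri in KLRG1- cells were -0.24 and -0.048, and the treatment interaction was 0.98 for Hk1 and 0.44 for Slc2a3. With detected genes as a covariate, Hk1 and Pfkp for KLRG1 in isotype cells were -0.018 and -0.0025, and the Hk1 interaction was 0.049. Pfkp was -0.11 without the 3 libraries. The Tpi1 calls were lost only in libraries with an RNA number, in 1 of 14 settings for each KLRG1 class.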
